A study of Mus musculus with 10 samples.

Results

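Liver metastases that formed in mice with floxed Nfib alleles were compared with primary lung tumors of mice whose Nfib gene was not targeted. The 2 metastases came from mice of the genotype RPR2;Nfibf/f, or Nfib-floxed (mouse tags JHK1398 and JHK1399), and the 3 lung tumors from RPR2 mice (JHK1373, JHK1394 and JHK1548). These 5 libraries were taken by their genotype and tissue labels from 10 in the series, and each came from a different mouse. The other 5 are the lung tumors of 3 Nfib-floxed mice and the liver metastases of the RPR2 mice JHK1373 and JHK1394. The question was how far a metastasis formed in the Nfib-floxed genotype keeps the state of an Nfib-intact primary tumor. Genotype and tissue change together in this comparison, so their shares cannot be told apart.

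RPR2 mice develop small cell lung cancer after loss of Rb1, Trp53 and Rbl2, which normally restrain growth, and tumors of both genotypes share these deletions. Nfibf/f mice carry in addition floxed alleles of Nfib, which recombinase can delete. How the alleles were recombined, which part of Nfib is floxed, and how old the mice were are not stated in the labels used. Tumors were cut out by hand when the mice became ill, so each library can hold RNA of the surrounding organ. In such bulk samples, fewer cells of a type and less RNA per cell cannot be told apart.

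Small cell lung cancer is an aggressive neuroendocrine tumor. Most tumors of this kind make neuropeptides and secretory granules, and keep an epithelial cell adhesion program. NFIB belongs to the nuclear factor I family of DNA-binding proteins, is often gained in metastatic tumors of these mouse models, and is known for opening chromatin and for neuronal gene expression in spread tumors. Club cells, the secretory cells of the airway lining, are a source of normal lung RNA around such tumors.

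Expression is given in TPM, the transcript share scaled to a fixed library total, which is normalized for gene length and library total. Every library sums to 1000000 TPM, so the depth behind each value is unknown. The lung tumor of JHK1394 held the most Scgb1a1, a club cell secretoglobin, at 54787 TPM against 7539.9 and 9650.1 TPM in the others. Its summed level over 23 ciliated cell genes was 597 TPM, below the 697 and 678 TPM of JHK1373 and JHK1548. The metastasis of JHK1398 held little RNA of liver: its summed level over 36 hepatocyte genes was 255 TPM, below the 532 to 2287 TPM of the RPR2 lung tumors, while the metastasis of JHK1399 reached 4825 TPM. The tissue label of the JHK1398 metastasis is thus not borne out by hepatocyte RNA, and the counts of passing genes and of genes within 2-fold are also given without both libraries. Nothing in the labels says that the libraries are technical repeats.

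The gene named by the genotype was read first. Nfib (chr4:82290173-82705750, minus strand) stood at 46.1 and 41.3 TPM in the metastases of JHK1398 and JHK1399, and at 85.3, 28.3 and 118 TPM in the lung tumors of JHK1373, JHK1394 and JHK1548. The metastases lay within the range of the lung tumors. The mean difference of -33.39 TPM (43.7 ± 3.43 against 77.1 ± 45.3 TPM, SD, n = 2 and 3) had an exact permutation p of 0.6 (two-sided), where 10 arrangements allow no p below 0.2. Reads from outside the floxed stretch would still count toward this level, which therefore checks the genotype label little. Of the other NFI genes, Nfic stood at 38.2 and 58.5 TPM in the metastases against 50.6 to 68.7 TPM in the lung tumors. Nfix stood at 2.11 and 20.4 TPM against 8.99 to 18.8 TPM, and Nfia at 5.40 and 1.32 TPM against 1.45 to 4.89 TPM. None of the 4 NFI genes passed the test used below.

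Across all genes, few differences were firm. Differences of mean log2(TPM + 1) were tested with limma in 1 model of the 4 groups, with Benjamini-Hochberg adjustment and a threshold of 0.05 for passing. Of 15503 genes whose mean reached 1 TPM, 9 passed (0.0581%). All 9 were lower in the Nfib-floxed metastases and 0 were higher. At an unadjusted p under 0.05, 120 genes were higher and 1090 lower in the same limma fit, 7.80% of genes in all. Counts at this p in the gene lists below are to be read against these shares. The 2 metastases and 3 lung tumors did not overlap in 1014 genes that were higher (6.54%) and in 3094 that were lower (20.0%). The median log2 difference over all tested genes was -0.109, and it became 0.0616 with quantile normalization and 0.0628 with median centring.

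The genes that passed were airway secretory genes, a matrix protein, an epithelial protease and antibody light chain segments. Scgb3a2, a secretoglobin of club cells (chromosome 18, 43764289 to 43767399), stood at 0.363 and 3.13 TPM in the metastases and at 824, 2612 and 1209 TPM in the lung tumors, a log2 difference of -9.18 ± 1.25 (SE, limma adjusted p = 0.0401). Scgb3a1, another airway secretoglobin (chr11:49663610-49665118), stood at 1.76 and 3.21 TPM against 638, 1379.6 and 1401 TPM (-8.30 ± 1.12, adjusted p = 0.0401). Cbr2, a carbonyl reductase of club cells (chr11:120729489-120732114), stood at 0.785 and 0.669 TPM against 159, 1398 and 347 TPM (-7.95 ± 0.92, adjusted p = 0.0334). Every lung tumor held more than 100-fold the level of either metastasis for these 3 genes. Fmo2, a flavin monooxygenase that is abundant in lung (chr1:162874317-162898726), stood at 0.0843 and 3.73 TPM against 47.1, 155 and 41.7 TPM (-4.92 ± 0.66, adjusted p = 0.0401).

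Mgp, which encodes matrix Gla protein, an inhibitor of calcification (chr6:136872435-136875823), stood at 27.2 and 32.3 TPM in the metastases against 354, 345 and 456 TPM in the lung tumors. Its log2 difference was -3.64 ± 0.42 (adjusted p = 0.0334), and both groups were tight. Tmprss2, a membrane serine protease of epithelia (chr16:97564682-97611195), stood at 1.31 and 0.758 TPM against 25.0, 21.6 and 13.9 TPM (-3.36 ± 0.42, adjusted p = 0.0401). The remaining 3 were immunoglobulin kappa variable segments on chromosome 6, which the rule for named genes passes over and which are named here because the count is small. Igkv6-25 and Igkv14-111 were listed at 0 in both metastases and at 16.8 to 56.4 and 8.09 to 15.2 TPM in the lung tumors (adjusted p = 0.0401 and 0.0497). Igkv5-48 was listed at 0 and 0.343 TPM against 8.78 to 48.3 TPM (adjusted p = 0.0497). Such segments resemble each other, so how reads were split among them is uncertain.

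**Figure D1:**
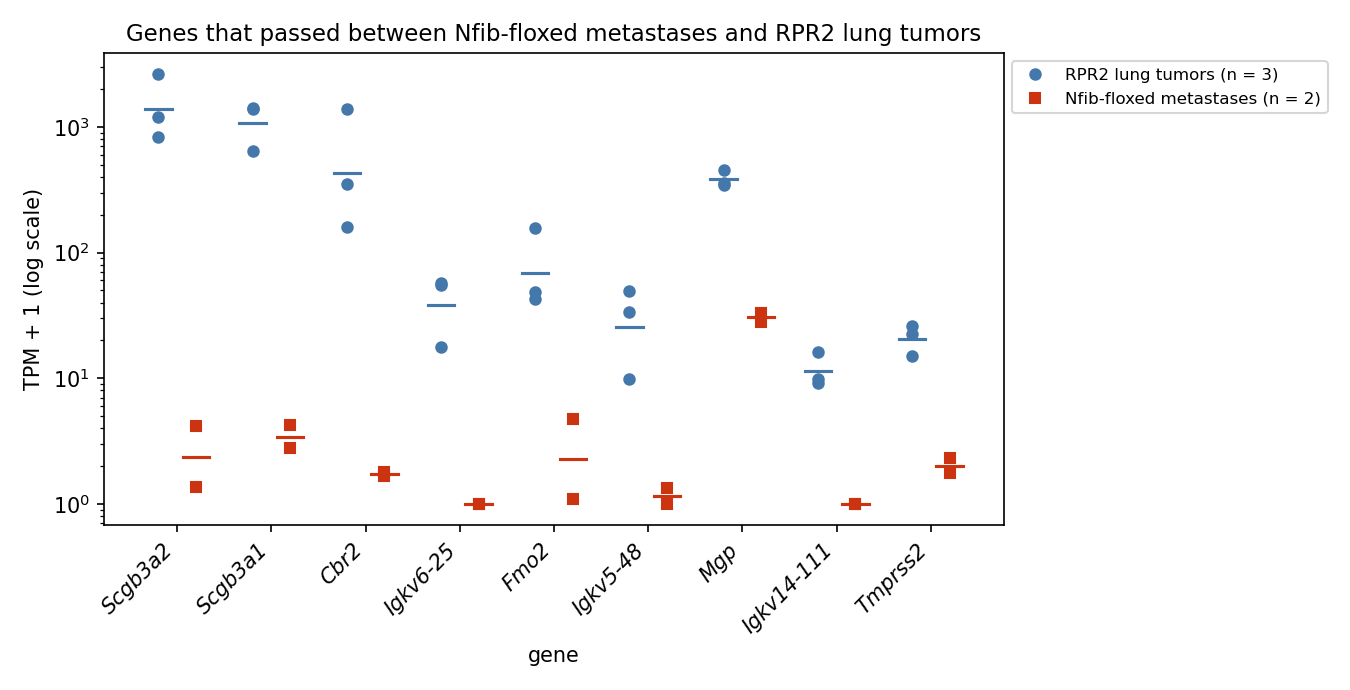
TPM + 1 on a log axis for the 9 genes that passed, in the 3 RPR2 lung tumors (circles) and the 2 Nfib-floxed metastases (squares). Each point is a library and each bar the mean on the log scale. The groups do not overlap in any of the 9 genes.

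These 9 calls were fragile, although their direction was not. Without the lung tumor of JHK1548, 0 genes passed and 1089 had an unadjusted p under 0.05 in limma. Without that of JHK1394, 1 gene passed, which was lower, and without that of JHK1373, 2 passed, 1 higher and 1 lower. Without the metastasis of JHK1398, 6 genes passed, all of them higher, and without that of JHK1399, 4 passed, of which 3 were higher. Without both the JHK1398 metastasis and the JHK1394 lung tumor, 0 genes passed and 871 had an unadjusted p under 0.05. The 6 named falls kept their sign under every alternative that could be fitted, with log2 differences of -10.13 to -7.71 for Scgb3a2 and -3.76 to -3.47 for Mgp.

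The same 6 genes were set beside the RPR2 liver metastases, which share the lung tumors as reference. Scgb3a2 stood at 1.25 and 7.71 TPM in these metastases, Cbr2 at 2.64 and 3.06 TPM, Mgp at 47.5 and 43.5 TPM and Tmprss2 at 0.604 and 0.707 TPM. Tested directly between the metastases of both genotypes, the log2 difference was -0.90 for Scgb3a2 (limma adjusted p = 0.905), -1.16 for Cbr2 (0.770), -0.60 for Mgp (0.710) and 0.28 for Tmprss2 (0.915). For these genes the metastases of both genotypes lay far below the lung tumors, and no difference between the genotypes passed.

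The airway genes belong to larger groups that mark normal lung. Of 13 club cell genes tested, 3 passed as lower and 10 did not pass, where 0.0581% of all genes passed as lower. The median log2 difference of the 13 was -4.24, all 13 lay below 0, and 10 had no overlap between the groups. On the lower side, 20.0% of all genes did not overlap. Scgb1a1 stood at 6.92 and 34.96 TPM in the metastases and missed the threshold (-9.88 ± 1.51, adjusted p = 0.0606). At an unadjusted p under 0.05 in limma, 1090 of all 15503 genes were lower. Alveolar type 2 genes, which serve surfactant, had a median of -3.36 over 14 genes, with 0 passing and 11 lower at this p. Among them the surfactant protein gene Sftpd stood at 0.0345 and 0.139 TPM against 29.98, 439 and 40.3 TPM. Of 12 alveolar type 1 genes 0 passed and the median was -2.33 (-1.38 without the lung tumor of JHK1394), with Cldn18, a claudin of alveolar epithelium, at 0 and 0.0418 TPM against 7.14 to 64.3 TPM. The summed club cell list ran to 169 and 700 TPM in the metastases and 9789 to 62560 TPM in the lung tumors, and the type 2 list to 93.9 and 119 against 407 to 10670 TPM. The type 1 list summed to 288 and 326 TPM against 347 to 1527 TPM, and lung endothelium to 58.4 and 82.6 against 91.2 to 222 TPM. Ciliated cell genes did not share this fall in their sum, with 676 and 856 TPM against 597 to 697 TPM. Of 15 tested, 0 passed, 1 was lower at an unadjusted p under 0.05 in limma, and the median was -0.89. How much of each gene's difference is RNA of normal lung was not tested.

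The promoter of Scgb3a1 is shown because the gene had one of the largest falls and its promoter holds a single nuclear factor I site. The sequences here come from RefSeq for build GRCm38.p6, run 5′ to 3′ on the gene's strand, and cover 250 bases before to 50 bases after an annotated start, 300 bases in all. Of 14 genes looked up, 12 had a promoter there. The search covered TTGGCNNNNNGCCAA (the full palindrome that NFI dimers bind), TTGGCA (a single NFI site) and TGTTTAC (a forkhead site), on both strands. The single site can overlap the palindrome. The genes were picked after their values were seen. Capitals mark TGCCAA, the single site read on the other strand, whose first base lies 154 bases before the start. A single NFI site occurs in 14.1% of all 32851 promoters, so this match describes the sequence and shows no binding.

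Scgb3a1 promoter, chr11:49663345-49663644, plus strand: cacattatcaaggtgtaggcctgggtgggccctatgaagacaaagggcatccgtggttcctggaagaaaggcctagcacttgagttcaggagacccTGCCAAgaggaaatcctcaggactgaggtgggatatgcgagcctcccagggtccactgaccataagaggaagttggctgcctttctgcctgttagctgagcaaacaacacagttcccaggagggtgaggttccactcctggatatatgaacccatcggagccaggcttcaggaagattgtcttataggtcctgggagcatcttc

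Of 2 annotated starts of Fmo2, the window of 1 also held a single NFI site, at 213 bases before that start, and a forkhead site at 28 bases before it. Of 3 starts of Foxa2, a gene within 2-fold, the window of 1 held a single NFI site. The other windows of both genes held none of the listed motifs. No listed motif was found in the promoter windows of Cbr2, Tmprss2, Neurod4, Kcnj3, Jchain, Nnat, Calca and Krt7. This says only that these letters are not in the windows.

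Neuroendocrine identity was measured by a list of 27 genes, of which 26 were tested. None passed in limma, 1 had an unadjusted p under 0.05, and the median log2 difference was -0.18. This median turned to 0.19 without the metastasis of JHK1398, was -0.52 without that of JHK1399 and was -0.06 without the lung tumor of JHK1373. Insm1, a zinc finger factor of neuroendocrine cells, stood at 195 and 339 TPM against 179 to 186 TPM (95% interval of the log2 difference -0.32 to 1.30). Nkx2-1, the lung lineage factor, stood at 161 and 316 TPM against 256, 171 and 421 TPM (interval -1.30 to 0.85). Nkx2-1 was thus well expressed in both liver metastases.

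A gene was counted as held at its level when its 95% interval lay wholly within 2-fold either way. This was so for 3118 of the 15503 genes (20.1%), and for 1581 of the 3827 genes whose mean over the 5 libraries reached 50 TPM (41.3%). Of the neuroendocrine list, 3 genes met it. Foxa2, a forkhead factor of endoderm, stood at 225 and 245 TPM against 258, 252 and 296 TPM (interval -0.80 to 0.42). Sox2, a stem cell factor, stood at 97.7 and 135 TPM against 130, 124 and 156 TPM (interval -0.89 to 0.41). Scg3, a granin of secretory granules, stood at 137 and 162 TPM against 142, 181 and 113 TPM (interval -0.61 to 0.74). For Sox2 and Scg3 at least 1 metastasis lay inside the range of the lung tumors, and for Foxa2 both lay just under it. The count within 2-fold depends on the number of libraries: it ran from 632 to 2100 genes with 1 library left out, with the lowest value without the metastasis of JHK1398, and was 349 without both doubted libraries. Of 32 genes followed by their interval, 15 stayed within 2-fold under at least 15 of up to 19 alternatives. The interval of Krt7, Cdh2, Crmp1, Kcnh2, Mcm2, Mdm2, Mxd3, Rb1 and Trp53, named below, left the 2-fold range whichever library was left out.

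The peptide genes varied widely within each group. Calca, which encodes calcitonin and its related peptide CGRP, stood at 5469.7 and 57529 TPM in the metastases and at 18196, 9162 and 11505 TPM in the lung tumors. The metastases thus lay at opposite ends, 1 below and 1 above every lung tumor. Chga, the granule protein chromogranin A, stood at 235 and 726 TPM against 775, 249.2 and 379 TPM. Neuropeptide and granin genes gave 0 of 20 passing, 1 higher and 2 lower at an unadjusted p under 0.05, and a median of 0.10. It was 0.27 without the metastasis of JHK1398, -0.14 without that of JHK1399, and 0.057, 0.21 and 0.023 without the lung tumors of JHK1373, JHK1394 and JHK1548. Cartpt, an appetite peptide, stood at 91.1 and 36.1 TPM against 3.10, 7.28 and 1.68 TPM (3.70 ± 1.38, adjusted p = 0.480). In the Nfib-floxed lung tumors it stood at 40.2, 16.1 and 653 TPM. Grp, gastrin-releasing peptide, stood at 1.88 and 0.154 TPM against 3.24, 2.85 and 8.45 TPM.

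Epithelial adhesion genes of these metastases were near the lung tumors and apart from those of RPR2 metastases. Cdh1, which encodes E-cadherin, stood at 236 and 352 TPM in the Nfib-floxed metastases and at 446, 426 and 270 TPM in the lung tumors (-0.37 ± 0.34, interval -1.12 to 0.39). In the RPR2 metastases it stood at 5.46 and 5.20 TPM, and the direct difference between the metastases of both genotypes was 5.51 on the log2 scale (limma adjusted p = 0.000125). Epcam, an epithelial adhesion molecule, stood at 407 and 763 TPM against 736, 733 and 674 TPM in the lung tumors and 85.8 and 93.2 TPM in the RPR2 metastases (2.63 between the metastases, adjusted p = 0.00523). Krt7, a keratin of simple epithelia, stood at 481 and 746 TPM against 683, 686 and 470 TPM in the lung tumors, an interval of -0.98 to 0.96, and at 17.5 and 51.6 TPM in the RPR2 metastases. For Cdh1, Epcam and Krt7 the Nfib-floxed metastases overlapped the lung tumors, and every RPR2 metastasis lay far below them.

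Over the whole list of 27 junction and polarity genes, 0 passed between the Nfib-floxed metastases and the RPR2 lung tumors, 7 were lower at an unadjusted p under 0.05, and 26 of 27 lay below 0. The median was -0.66, and 8 of 27 members did not overlap on the lower side, where 20.0% of all genes did not. F11r, the junction adhesion molecule A, stood at 55.5 and 66.8 TPM against 123, 176 and 128 TPM (-1.19 ± 0.36, adjusted p = 0.335). Marveld3, a tight junction protein, stood at 2.04 and 9.12 TPM against 16.4, 21.6 and 15.7 TPM (-1.75 ± 0.54, adjusted p = 0.355). So the list sat slightly under the lung tumors without a call. The median without the metastasis of JHK1398 was -0.30, and without that of JHK1399 it was -1.04. Against the same lung tumors, the RPR2 metastases were lower in 21 of the 27 genes, where 3.57% of all genes were lower and 5.61% passed in either direction. Between the metastases, 14 of the 27 were higher in the Nfib-floxed ones, where 1.13% of all genes were.

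Epithelial regulators and proteases gave a like picture with a larger shift. Of 18 tested, 1 passed as lower (Tmprss2), 6 had an unadjusted p under 0.05, all 18 lay below 0 and the median was -0.83, which was -0.47 without the metastasis of JHK1398. The RPR2 metastases were lower than the lung tumors in 15 of the 18 (3.57% of all genes), and 8 were higher in the Nfib-floxed than in the RPR2 metastases (1.13% of all genes). Tmprss2 was not among those 8: it was near 1 TPM in every metastasis of both genotypes. Of 13 mesenchymal genes 0 passed, 3 were lower at an unadjusted p under 0.05, and the median was -0.77, which was -0.41 without the lung tumor of JHK1394. Cdh2, which encodes N-cadherin, stood at 58.6 and 42.8 TPM against 58.9, 42.8 and 52.3 TPM (interval -0.99 to 0.94). Fn1, fibronectin, stood at 25.9 and 41.4 TPM against 72.7, 243 and 78.7 TPM, and Sparc, a matrix glycoprotein, at 99.4 and 114 TPM against 182, 275 and 155 TPM.

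**Figure D2:**
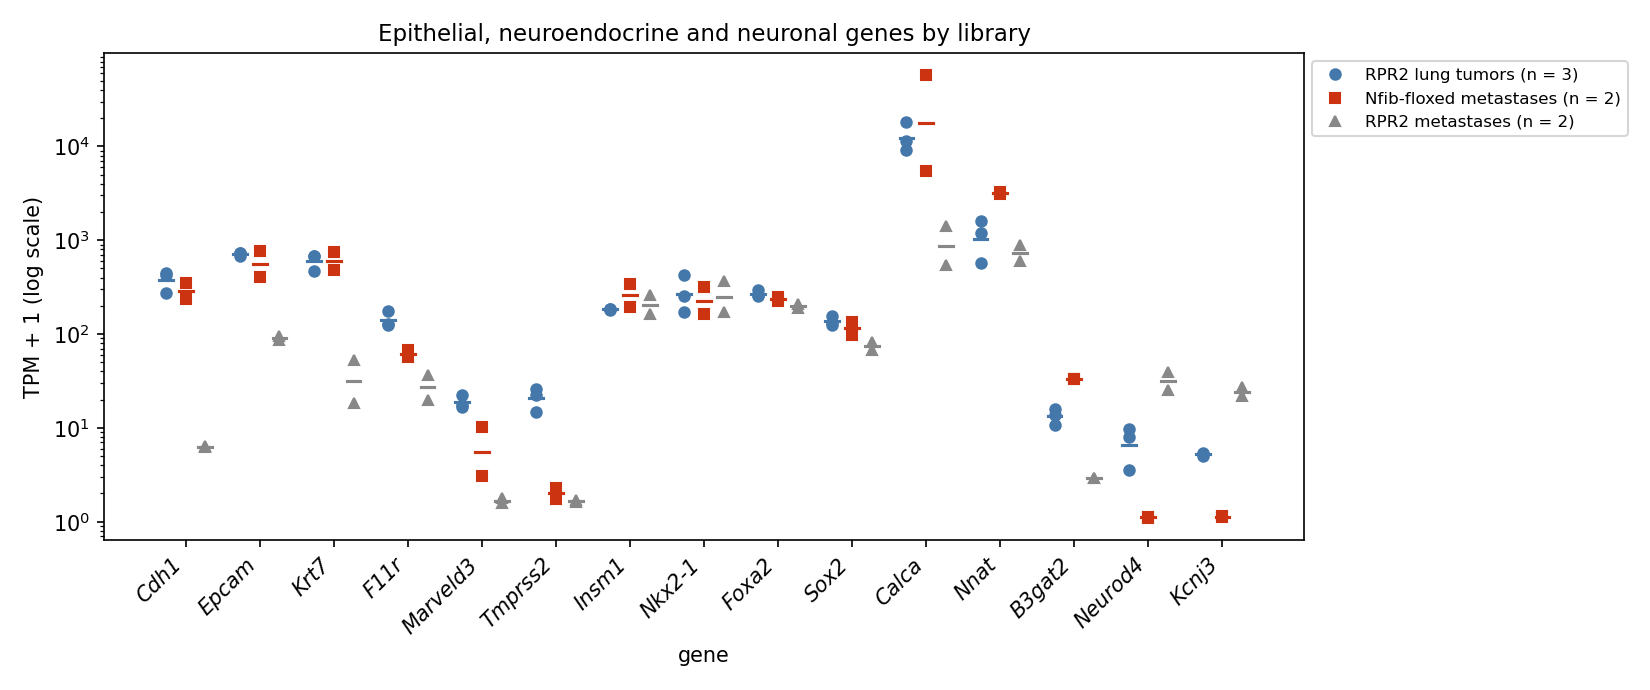
TPM + 1 on a log axis for epithelial genes (Cdh1 to Tmprss2), neuroendocrine genes (Insm1 to Calca) and 4 further genes (Nnat, B3gat2, Neurod4 and Kcnj3) in RPR2 lung tumors, Nfib-floxed metastases and RPR2 metastases. Points are libraries and bars means on the log scale. For Cdh1, at 236 and 352 TPM, the Nfib-floxed metastases sit beside the lung tumors, and for Neurod4 and Kcnj3 they sit near 0 while the RPR2 metastases lie above the lung tumors.

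A few neuronal genes showed the opposite order. Neurod4, a neurogenic transcription factor (chr10:130268152-130280240), stood at 0.134 and 0.0941 TPM in the Nfib-floxed metastases, at 7.04, 2.53 and 8.71 TPM in the lung tumors and at 24.2 and 38.3 TPM in the RPR2 metastases. Kcnj3, a subunit of a G protein-gated potassium channel (chr2:55435970-55598145), stood at 0.109 and 0.144 TPM, at 4.24, 4.36 and 4.04 TPM, and at 20.6 and 26.0 TPM in the same groups. Both genes were near 0 in the Nfib-floxed metastases, low in the lung tumors and higher in the RPR2 metastases, with no overlap. Against the lung tumors neither passed (-2.55 ± 0.51 for Neurod4 and -2.21 ± 0.45 for Kcnj3, both with limma adjusted p = 0.155). Between the metastases both passed (-4.82, limma adjusted p = 0.00222, and -4.42, adjusted p = 0.00188). Both genes were named for the smallest unadjusted p of their lists against the lung tumors. The comparison between metastases reuses the Nfib-floxed libraries behind that choice, so it is not independent of it. Against the Nfib-floxed lung tumors the log2 differences were -0.02 for Neurod4 (adjusted p = 0.996) and -0.38 for Kcnj3 (0.844), in a comparison where 0.123% of all genes passed, all of them lower.

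The neuronal lists had no passing member, and few members met the 2-fold interval: 1 of 33 axon genes, 1 of 31 ion channel genes, 1 of 28 synaptic genes and 0 of 10 receptor genes. Of 33 axon growth and guidance genes 0 passed, 2 were higher and 5 lower at an unadjusted p under 0.05, and the median was -0.25. In this list 4 genes were without overlap on the higher and 9 on the lower side, where 6.54% and 20.0% of all genes were. Ntn1, the guidance cue netrin-1, stood at 0.122 and 0.526 TPM against 8.05, 12.4 and 13.9 TPM (-3.22 ± 0.70, adjusted p = 0.214). Dclk1, a microtubule-binding kinase, stood at 8.68 and 7.71 TPM against 2.21, 2.82 and 2.23 TPM (1.43 ± 0.44, adjusted p = 0.355). Both genes separated the groups without passing. Crmp1, a mediator of axon guidance signals, stood at 103 and 98.8 TPM against 156, 85.1 and 83.6 TPM (interval -0.84 to 0.77). In the RPR2 metastases 6 of these 33 genes were higher and 2 lower than in the lung tumors, where 2.04% and 3.57% of all genes were. Between the metastases 6 were lower in the Nfib-floxed ones (0.910% of all genes) and 0 higher.

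Of 31 ion channel genes of excitable cells 0 passed and 2 were lower at an unadjusted p under 0.05, with a median of 0.26, which was 0.47 without the metastasis of JHK1398 and -0.02 without that of JHK1399. Kcnh2, a voltage-gated potassium channel, stood at 79.1 and 118 TPM against 99.9, 87.6 and 86.4 TPM (interval -0.78 to 0.94). Ano1, a chloride channel, stood at 1.22 and 1.03 TPM against 4.601, 19.8 and 3.49 TPM. Synaptic vesicle genes gave 0 of 28 passing, 0 at an unadjusted p under 0.05 and a median of 0.04, which turned to -0.10 without the metastasis of JHK1399, -0.09 without the lung tumor of JHK1394 and -0.04 without that of JHK1548, and was 0.24 without the metastasis of JHK1398 and 0.12 without the lung tumor of JHK1373. Rims2, an active zone protein, stood at 32.2 and 49.9 TPM against 47.4, 40.3 and 38.3 TPM (interval -0.82 to 0.71). Of 10 glutamate and GABA receptor genes 0 passed and 3 were lower at an unadjusted p under 0.05. In 4 both metastases lay below every RPR2 lung tumor, where 20.0% of all genes did. Grin3a, an NMDA receptor subunit, stood at 0.195 and 0.187 TPM against 8.05, 7.93 and 3.23 TPM (-2.55 ± 0.73, adjusted p = 0.322), and Cacng7, an AMPA receptor partner, at 0.990 and 3.10 TPM against 46.1, 3.47 and 57.4 TPM.

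No gene passed as higher in the Nfib-floxed metastases. Those with the smallest unadjusted p among the higher genes that the naming rule admits were Sall4, B3gat2, Smoc1, Matk and Nnat. Sall4, a stem cell zinc finger factor, stood at 14.6 and 11.7 TPM against 4.32, 0.178 and 1.83 TPM (2.43 ± 0.62, adjusted p = 0.282). B3gat2, a glucuronyltransferase of the HNK-1 carbohydrate, stood at 32.4 and 31.8 TPM against 14.9, 12.8 and 9.67 TPM (1.32 ± 0.34, adjusted p = 0.285). It stood at 1.94 and 1.93 TPM in the RPR2 metastases, and the difference between the metastases passed (3.49, adjusted p = 0.00188). Nnat, neuronatin, a small membrane protein of neuroendocrine cells, stood at 3247 and 3133 TPM against 1196, 575 and 1611 TPM (1.62 ± 0.44, adjusted p = 0.295). Matk, a kinase that restrains Src family kinases, stood at 18.7 TPM in both metastases against 3.00 to 6.03 TPM, and Smoc1, a matrix protein, at 6.42 and 8.82 TPM against 0.492 to 1.20 TPM. In all 5 both metastases lay above every RPR2 lung tumor, which describes genes chosen for their small p. In the Nfib-floxed lung tumors Matk stood at 5.62, 20.4 and 15.4 TPM, and the others of the 5 lay below both metastases.

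The MYC family was read with its partners. Of 12 genes 0 passed, 0 had an unadjusted p under 0.05, and 5 lay within 2-fold, among them Max (58.9 and 83.3 TPM against 59.1 to 67.8 TPM), Mxd3 and Mlx. Mycl, the family member most tied to neuroendocrine small cell lung cancer, stood at 981 and 31.6 TPM in the metastases of JHK1398 and JHK1399 against 149, 106 and 141 TPM in the lung tumors. The metastases thus lay on opposite sides of all lung tumors. Its log2 difference of 0.44 turned to -2.02 without the JHK1398 metastasis. Myc stood at 0.919 and 3.29 TPM against 3.71, 10.3 and 7.14 TPM, and Mycn at 3.89 and 6.98 TPM against 1.43, 3.30 and 8.64 TPM.

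Genes next to Mycl on chromosome 4 were also high in the JHK1398 metastasis. Within 150000 bases on each side, Ppt1, a lysosomal thioesterase gene, stood at 879 TPM, Cap1, an actin regulator, at 5752 TPM and Trit1, a transfer RNA modifying enzyme, at 1074 TPM. These were 15.2, 21.4 and 21.3 times the median of the lung tumors, and Mycl was 6.93 times. Farther along, Bmp8b stood at 0.58 and Ppie at 0.91 times that median. In the metastasis of JHK1399 all 8 tested genes of this stretch lay below the median, from 0.22 times for Mycl to 0.88 times for Ppt1. The RPR2 metastasis of JHK1373 also stood high, with 711 TPM of Ppt1, 2920.2 TPM of Cap1, 482 TPM of Mycl and 645 TPM of Trit1. The other 8 libraries of the series held 12.2 to 166 TPM of Mycl. None of these 4 genes passed between the groups. These neighbors were looked at after the level of Mycl was seen.

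**Figure D3:**
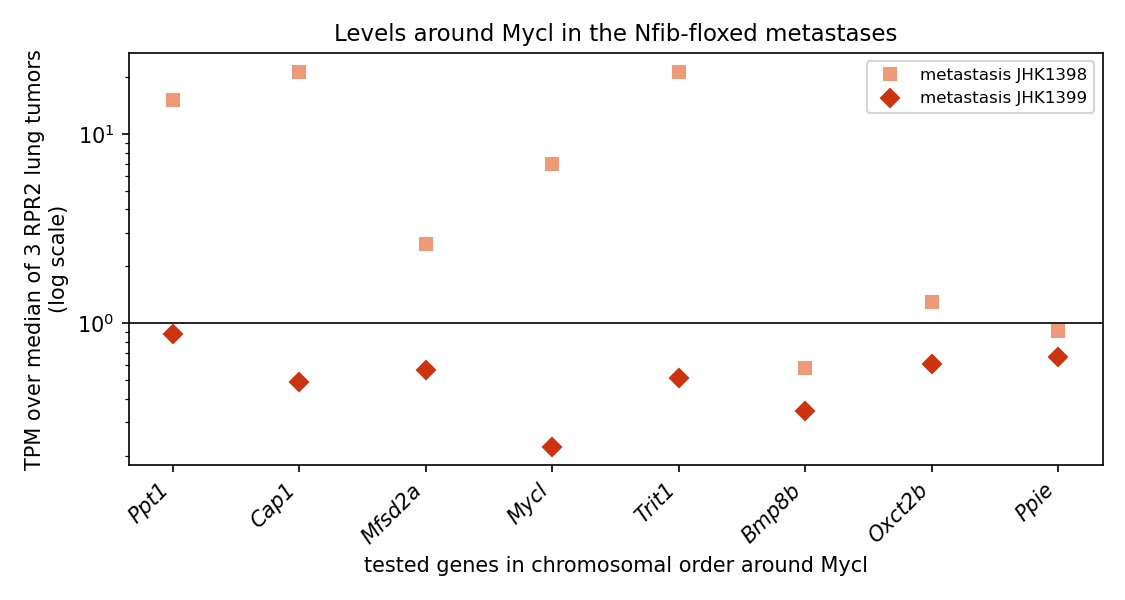
TPM of each Nfib-floxed metastasis over the median of the 3 RPR2 lung tumors, on a log axis, for the 8 tested genes around Mycl in chromosomal order. In JHK1398 the ratio reaches 21.4 for Cap1 and returns to 0.58 at Bmp8b, and in JHK1399 it stays below 1.

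The genes deleted in the model overlapped between the groups. Rb1 stood at 94.0 and 131 TPM against 116, 92.0 and 143 TPM (interval -0.94 to 0.84), and Trp53 at 10.8 and 17.7 TPM against 16.3, 16.2 and 14.6 TPM (interval -0.95 to 0.61). Rbl2 stood at 7.99 and 38.9 TPM against 15.9, 13.9 and 28.8 TPM. Whole-gene levels need not show a partial deletion, and they were alike in range in both groups. Of 29 RB and p53 pathway genes 0 passed, 2 were lower at an unadjusted p under 0.05 and 9 lay within 2-fold. In 1 of the 29 both metastases lay above every lung tumor and in 4 below, where 6.54% and 20.0% of all genes did. Bax, an inducer of cell death, stood at 178 and 188 TPM against 179, 150 and 197 TPM, and Mdm2, the p53 ligase, at 57.6 and 86.8 TPM against 79.4, 57.9 and 67.4 TPM. Cdkn2b, a cell cycle inhibitor, stood at 3.05 and 8.15 TPM against 15.5, 31.6 and 20.97 TPM (-1.90 ± 0.52, adjusted p = 0.297).

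Of the proliferation genes, those of mitosis leaned higher and those of DNA replication slightly lower, with none passing. Of 30 mitosis genes 0 passed, 4 were higher at an unadjusted p under 0.05, 29 lay above 0, 13 did not overlap on the higher side, where 6.54% of all genes did not, and the median was 0.54. Without the lung tumor of JHK1394, which was lowest in most of them, the median was 0.21. The rise was not particular to the Nfib-floxed metastases. In the RPR2 metastases the mitosis median was 0.645 against the same lung tumors, and between the metastases it was 0.004. Ube2c, a mitotic ubiquitin enzyme, stood at 776 and 533 TPM against 321, 186 and 322 TPM (1.26 ± 0.44, adjusted p = 0.445). Cenpa, the centromere histone, stood at 273 and 270 TPM against 191, 102 and 191 TPM (0.81 ± 0.33, adjusted p = 0.573). DNA replication genes gave 0 of 30 passing, 0 at an unadjusted p under 0.05, a median of -0.27 and 9 within 2-fold. The median was -0.42 without the metastasis of JHK1398, -0.16 without that of JHK1399 and -0.46 without the lung tumor of JHK1394. The median of all tested genes was -0.109. With median centring the replication median was -0.10, where that of all tested genes was 0.0628. In the RPR2 metastases the replication median was 0.225 against the lung tumors, and between the metastases it was -0.533. Mcm2, part of the replicative helicase, stood at 157 and 127 TPM against 210, 166 and 182 TPM (interval -0.99 to 0.22), and Rrm1, a ribonucleotide reductase subunit, at 171 and 143 TPM against 188, 123 and 184 TPM.

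Oxidative phosphorylation genes were held closely in the fit of all libraries. Of 24 oxidative phosphorylation genes 0 passed, 0 had an unadjusted p under 0.05 and 19 lay within 2-fold, against 20.1% of all genes and 41.3% of those with at least 50 TPM. Their median was -0.02, and it was -0.18 without the metastasis of JHK1398, 0.19 without that of JHK1399, 0.05 without the lung tumor of JHK1548, -0.10 without that of JHK1394 and -0.005 without that of JHK1373. Cox4i1, a subunit of cytochrome oxidase, stood at 1119 and 1047 TPM against 953, 927 and 1057 TPM (interval -0.54 to 0.83). Atp5b, of ATP synthase, stood at 1739 and 924 TPM against 1343, 956 and 1353 TPM (interval -0.71 to 0.86). The intervals of Cox4i1 and Atp5b left the 2-fold range in some fits with 1 library left out. Of 25 ribosome biogenesis genes 0 passed and 10 lay within 2-fold, with a median of 0.06 that was -0.31 without the metastasis of JHK1398, 0.43 without that of JHK1399, and 0.155, 0.002 and 0.02 without the lung tumors of JHK1373, JHK1394 and JHK1548. Npm1, nucleophosmin, stood at 668 and 347 TPM against 513, 469 and 510 TPM, the metastases again lying on either side of the lung tumors. Hypoxia and glycolysis genes gave 0 of 25 passing, 4 higher at an unadjusted p under 0.05, 10 without overlap on the higher side, 1 within 2-fold and a median of 0.68, which was 0.38 without the metastasis of JHK1398. For non-overlap on the higher side, the share of all genes was 6.54%. Ankrd37, a target of the hypoxia factor, stood at 122 and 183 TPM against 79.6, 54.3 and 101 TPM (0.97 ± 0.33, adjusted p = 0.434). Genes encoded in the mitochondrial genome summed to 64150 and 66220 TPM in the metastases and 43240 to 51980 TPM in the lung tumors. All 13 lay above 0, 11 without overlap, and 0 passed, with 0 at an unadjusted p under 0.05 and 0 within 2-fold.

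**Figure D4:**
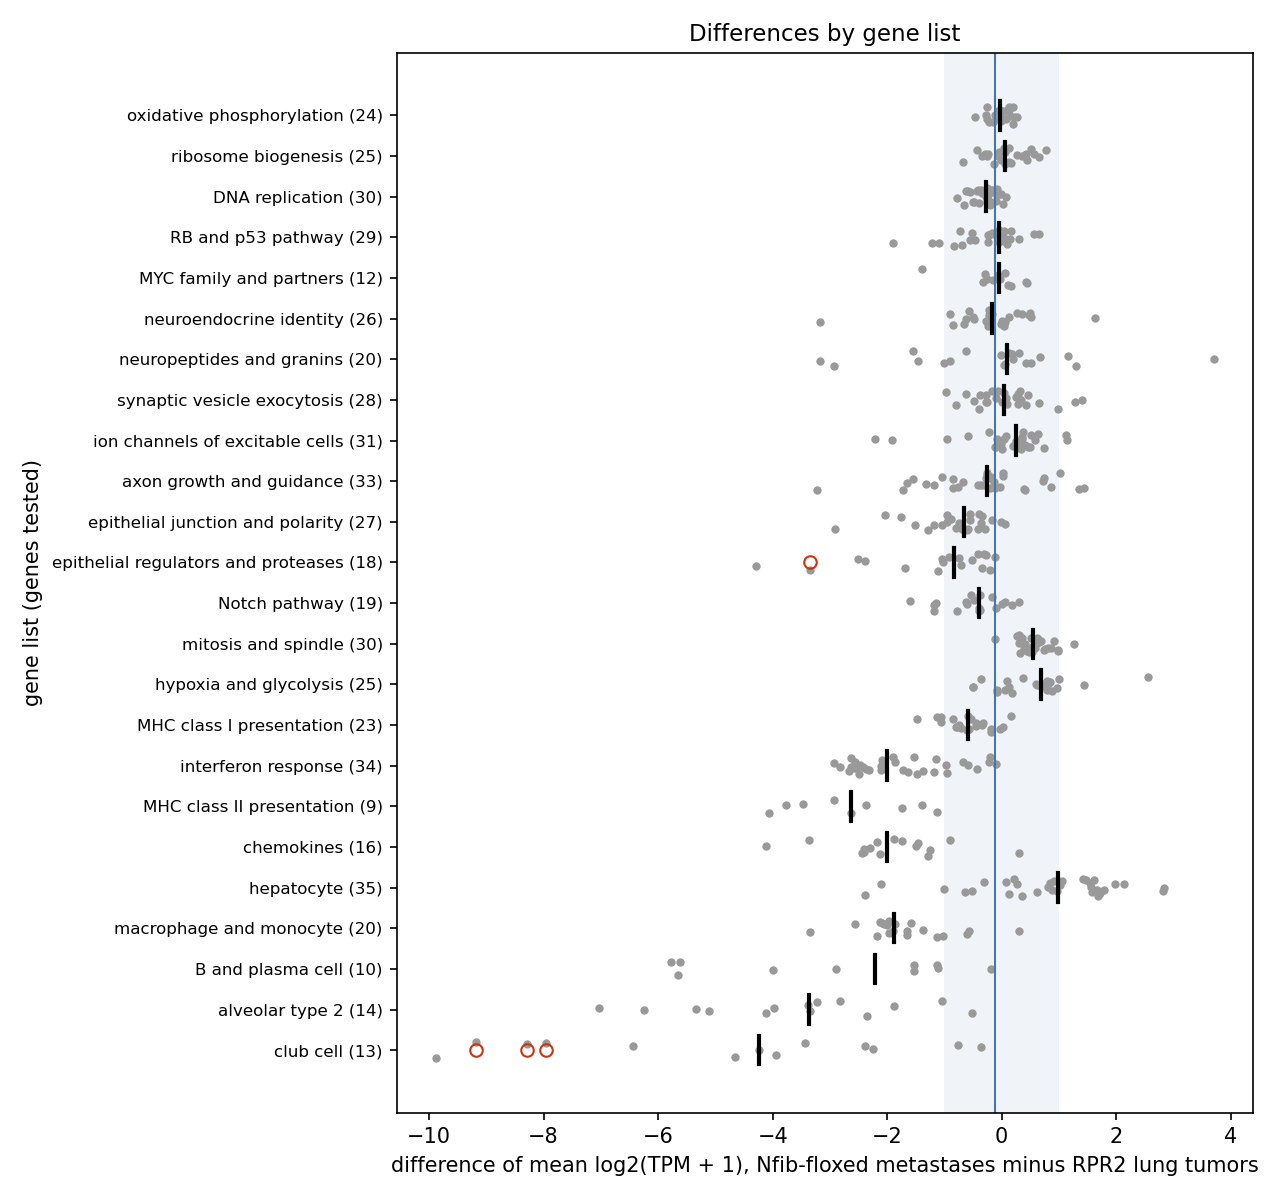
Differences of mean log2(TPM + 1), Nfib-floxed metastases minus RPR2 lung tumors, for the tested members of 24 gene lists. Grey points are genes, black bars list medians, open red circles genes that passed, the thin blue line the median of all tested genes, and the shaded band a difference within 2-fold. Oxidative phosphorylation genes center at -0.02, interferon genes at -1.997 and club cell genes at -4.24.

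Interferon genes stood low in both metastases without passing. Of 34 interferon response genes 0 passed in limma, but 25 were lower at an unadjusted p under 0.05, all 34 lay below 0 and 25 did not overlap, where 20.0% of all genes did not overlap in that direction. The median was -1.997, and it was -1.21 without the metastasis of JHK1398 and -1.57 without the lung tumor of JHK1394. Oasl1, a member of this list (chr5:114923240-114937915), stood at 0.959 and 2.64 TPM against 20.1, 18.3 and 15.5 TPM (-2.82 ± 0.46, adjusted p = 0.0736). Ifit1, an antiviral RNA-binding protein, stood at 3.51 and 4.27 TPM against 27.8, 51.8 and 17.1 TPM (-2.63 ± 0.61, adjusted p = 0.240). Irf1, an interferon-inducible factor and the 1 member within 2-fold, stood at 40.6 and 76.2 TPM against 46.9, 77.2 and 58.9 TPM (interval -0.89 to 0.69). In the RPR2 metastases 12 of the 34 were lower than in the same lung tumors, where 3.57% of all genes were. Between the metastases 0 of 34 passed.

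The Oasl1 promoter is shown because it holds the full NFI palindrome, which is found in 12 of 32851 promoters (0.0365%). Capitals mark it at chr5:114923131-114923145, its first base 109 bases before the start, and its end also reads as the single site. The match was found among genes chosen for their values, and nothing here measures binding.

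Oasl1 promoter, chr5:114922990-114923289, plus strand: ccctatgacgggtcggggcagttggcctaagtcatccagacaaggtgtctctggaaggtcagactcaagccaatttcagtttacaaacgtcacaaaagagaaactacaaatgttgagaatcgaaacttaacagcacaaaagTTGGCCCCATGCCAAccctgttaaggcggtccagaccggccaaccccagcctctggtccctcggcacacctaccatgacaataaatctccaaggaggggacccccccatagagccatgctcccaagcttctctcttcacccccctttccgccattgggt

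Antigen presentation genes were read next. Of 9 class II genes 0 passed, 8 were lower at an unadjusted p under 0.05 in limma and the median was -2.63. Of all 15503 genes, 1090 were lower at this p. H2-Ab1, a class II chain, stood at 3.89 and 29.0 TPM against 73.8, 341 and 176 TPM (-3.77 ± 0.9988, adjusted p = 0.288), and Ctss, a protease of antigen presenting cells, at 39.2 and 69.3 TPM against 126, 663 and 241 TPM. Of 23 class I genes 0 passed, 1 was lower at an unadjusted p under 0.05 and the median was -0.59, which was -0.38 without the lung tumor of JHK1394. H2-K1, a class I heavy chain, stood at 494 and 691 TPM against 877, 1827 and 1151 TPM. Of 16 chemokines 0 passed and 11 were lower at an unadjusted p under 0.05, with Cxcl10, which draws T cells, at 3.33 and 3.05 TPM against 6.66, 26.9 and 31.3 TPM.

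Most macrophage genes and the B cell list were also low in the metastases, while T cell, neutrophil, dendritic and mast cell lists differed less. Of 20 macrophage and monocyte genes 0 passed, 14 were lower at an unadjusted p under 0.05 in limma and 19 lay below 0. At this p, 1090 of all 15503 genes were lower. The summed macrophage and monocyte list was 428 and 1653 TPM in the metastases and 1043, 8558 and 1971 TPM in the lung tumors, so the JHK1399 metastasis overlapped them. Alveolar macrophage genes also overlapped in their sum, with 406 and 223 TPM against 196, 1318 and 302 TPM. C1qb, a complement chain made by macrophages, stood at 41.9 and 71.9 TPM against 119, 307 and 229 TPM. B and plasma cell genes summed to 226 and 266 TPM against 1465, 1344 and 4520 TPM. Their median was -2.22 over 10 genes, of which 0 passed and 6 were lower at an unadjusted p under 0.05. Jchain, which joins secreted antibodies, stood at 1.56 and 2.05 TPM against 110, 85.4 and 272 TPM (-5.63 ± 0.87, adjusted p = 0.0606). Of 9 T and NK cell genes, 8 neutrophil genes and 4 dendritic cell genes 0 passed, and 1 of each list was lower at an unadjusted p under 0.05, with medians of -0.89, -0.77 and -0.65. Of 3 mast cell genes 0 passed and 1 was lower at an unadjusted p under 0.05. The neutrophil median was 0.29 without the metastasis of JHK1398 and -2.001 without that of JHK1399. The dendritic cell median was -0.08 and -1.46 in the same order. Gzma, a granzyme of killer lymphocytes, was listed at 0 and 0.0869 TPM against 5.34, 29.95 and 13.7 TPM. The part of immune cell number in the interferon and presentation genes was not tested.

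Signalling and matrix lists stood between these extremes. Of 19 Notch pathway genes 0 passed, 3 were lower at an unadjusted p under 0.05 and the median was -0.40. Hes1, a Notch target, stood at 11.2 and 11.1 TPM against 21.6, 77.8 and 27.3 TPM, and Jag1, a Notch ligand, at 3.32 and 2.55 TPM against 7.84, 8.95 and 6.98 TPM. Hes6, a target that favors neural differentiation, stood at 352 and 236 TPM against 238, 213 and 321 TPM (interval -0.51 to 0.88). The non-neuroendocrine regulators Yap1 and Wwtr1 stood at 2.41 and 3.84 TPM against 3.56, 14.4 and 4.26 TPM, and at 1.87 and 2.81 TPM against 4.44, 12.5 and 4.603 TPM. Neurod1 and Pou2f3, which define other subtypes, stood at 0.113 TPM or less in the 5 libraries and were not tested.

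Of 22 integrin and laminin genes 0 passed and 4 were lower at an unadjusted p under 0.05. Itgb6, an epithelial integrin, stood at 0.0367 and 0.0492 TPM against 2.41, 6.18 and 1.35 TPM, while Lamc1, a laminin chain, stood at 25.9 and 27.9 TPM against 15.8, 28.5 and 26.2 TPM (interval -0.53 to 0.99). Of 25 WNT genes 0 passed and 6 were lower at an unadjusted p under 0.05, with the coreceptor Lrp5 at 23.7 and 15.6 TPM against 53.2, 69.7 and 35.6 TPM (-1.36 ± 0.36, adjusted p = 0.288). Of 9 HOX genes 0 passed and 6 lay above 0. Their median was 0.43, which was 0.003 without the lung tumor of JHK1394. Hoxb8, a trunk patterning factor, stood at 2.47 and 14.4 TPM against 27.9, 20.4 and 24.9 TPM, and at 73.6 and 353 TPM in the RPR2 metastases, a difference between the metastases that passed (-4.47, adjusted p = 0.0333).

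Liver RNA did not mark both metastases alike. Of 35 hepatocyte genes tested 0 passed, 4 were higher at an unadjusted p under 0.05 and the median was 0.98. Alb, albumin, stood at 26.3 and 1159 TPM in the metastases of JHK1398 and JHK1399 against 20.9, 68.3 and 110 TPM in the lung tumors. Gc, a vitamin D carrier, stood at 12.5 and 185 TPM against 2.199, 8.72 and 10.1 TPM (2.84 ± 0.92, adjusted p = 0.391). Only the metastasis of JHK1399 lay well above the lung tumors for albumin. The list median was 2.43 without the JHK1398 metastasis, with 2 genes passing, and -0.50 without that of JHK1399. In the RPR2 metastases the hepatocyte sum was 16270 and 17190 TPM. Clec4f, which marks Kupffer cells, stood at 1.36 and 5.28 TPM against 0.0549, 0.204 and 1.28 TPM, and at 23.1 and 24.9 TPM in the RPR2 metastases. The summed Kupffer cell list was 17.9 and 32.3 TPM, below the 40.2 to 61.6 TPM of the lung tumors. Erythroid genes summed to 480 TPM in JHK1398 and 43000 TPM in JHK1399, on either side of the lung tumors at 3519 to 6504 TPM.

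**Figure D5:**
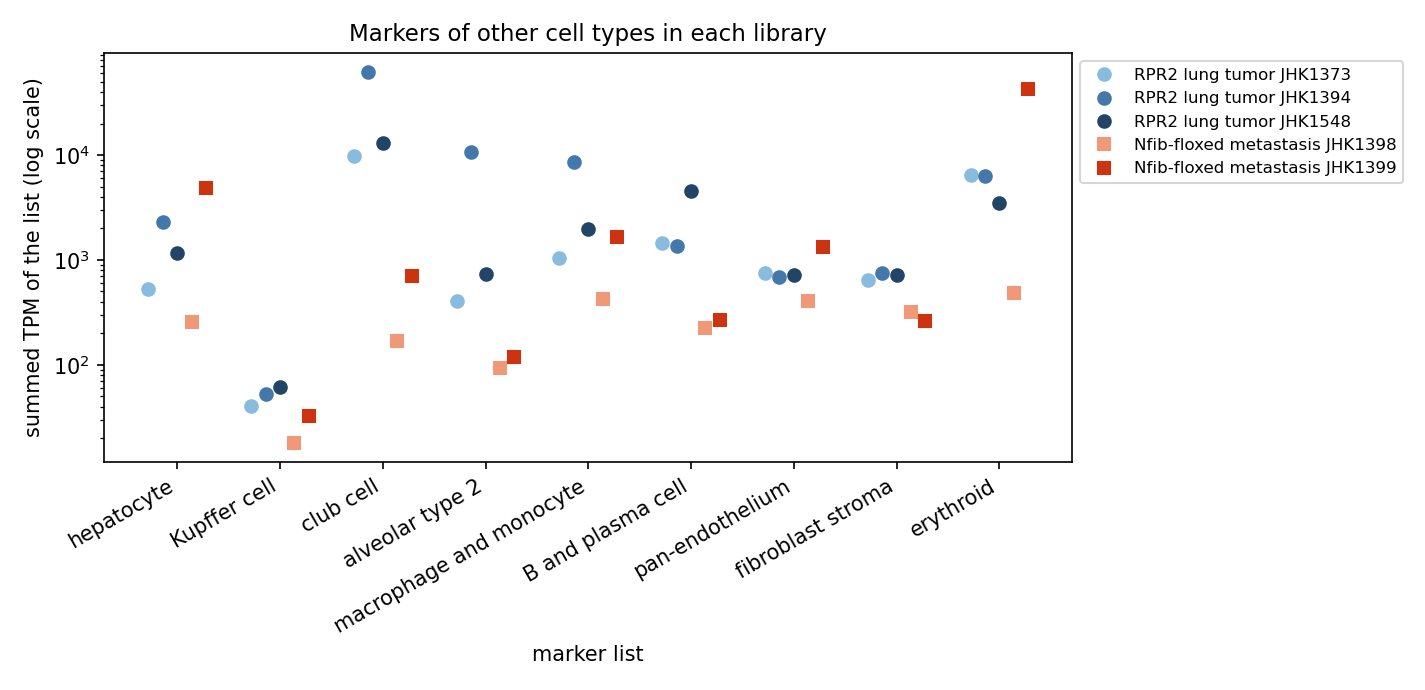
Summed TPM of marker lists of other cell types, on a log axis, in each of the 5 libraries. Squares are the Nfib-floxed metastases and circles the RPR2 lung tumors. Club cell, type 2 and B cell sums lie below every lung tumor in both metastases, while hepatocyte and erythroid sums of the metastases lie on either side of the lung tumors.

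As whole profiles, both metastases were more like the lung tumors of JHK1373 and JHK1548 than like the RPR2 metastases, but not that of JHK1394. Pearson correlations of log2(TPM + 1) across the 15503 genes were 0.933, 0.837 and 0.912 for the JHK1398 metastasis with the lung tumors of JHK1373, JHK1394 and JHK1548. For the JHK1399 metastasis they were 0.914, 0.847 and 0.895. The metastases correlated at 0.916 with each other, and the lung tumors at 0.906, 0.908 and 0.949 among themselves. The lung tumor of JHK1394 was the farthest for both metastases. With the RPR2 metastases of JHK1373 and JHK1394 the correlations were 0.875 and 0.866 for the JHK1398 metastasis and 0.856 and 0.854 for the JHK1399 metastasis, above those with the JHK1394 lung tumor. The RPR2 metastases correlated with the RPR2 lung tumors at 0.771 to 0.857. With the Nfib-floxed lung tumors of JHK1398, JHK1399 and JHK997, the JHK1398 metastasis correlated at 0.809, 0.875 and 0.877. For the JHK1399 metastasis these were 0.825, 0.909 and 0.905. It was thus about as close to the Nfib-floxed lung tumors of JHK1399 and JHK997 as to the RPR2 ones of JHK1373 and JHK1548. These are descriptions across genes, which are not independent, and no test was made of them.

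The share of genes more than 4-fold apart was also highest with the JHK1394 lung tumor. They made up 4.37%, 11.2% and 6.13% of genes between the JHK1398 metastasis and the lung tumors of JHK1373, JHK1394 and JHK1548, and 3.99%, 8.29% and 4.53% for the JHK1399 metastasis. Between pairs of lung tumors the share was 1.99% to 4.80%, and between the metastases 5.13%. Relative to the range of the 3 lung tumors, 38.9% of genes lay inside it in the JHK1398 metastasis and 39.2% in that of JHK1399. The share below the range was 43.7% in JHK1398 and 33.5% in JHK1399. A range of only 2 lung tumors is narrower. Inside it lay 22.5% to 27.9% of genes in the JHK1398 metastasis and 21.5% to 29.2% in that of JHK1399, depending on the lung tumor left out. On this same measure, a single lung tumor lay inside the range of the other 2 for 37.2% (JHK1373), 22.4% (JHK1394) and 41.4% (JHK1548) of genes. Between the metastases, 150 genes were more than 4-fold higher in JHK1398 and 645 in JHK1399.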

How the data were processed

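RNA was measured by sequencing, with polyA selection and a NEBNext Ultra II kit per the labels' protocols. The tools were Salmon 0.12.0, bcl2fastq 2.20 and R 4.1.0, with build GRCm38, per the submitters' processing notes. Strand, annotation and settings are not stated in the labels used, so antisense partners cannot be told apart. The authors deposited TPM per gene. TPM keeps no depth, so no counting interval is given. Positions come from GENCODE M21 of GRCm38, where 35028 of 35288 identifiers were found and 34728 had the same symbol.

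limma 3.58.1 in R 4.3.3 was fitted on log2(TPM + 1) to all 10 libraries in 4 groups, with moderated variances and a mean trend, for the 15503 genes whose mean reached 1 TPM (6 residual and 4.56 prior degrees of freedom). Tests were two-sided, with Benjamini-Hochberg adjustment over all tested genes. The log2(TPM + 1) scale understates changes of low genes. The spread comes from all 4 groups, and lung tumors and metastases of 1 mouse were treated as independent. The fit was tested on simulated data. Python 3.11.15 with numpy 2.4.6, pandas 2.3.3 and matplotlib 3.10.9 was used for the rest.

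The members, the 55 gene lists and the tests were chosen with earlier results of these data known. The lists held 1008 symbols, of which 3 were not found, and 7 had more than 1 identifier, of which the first was taken. Named genes were called genes whose higher group averaged 5 TPM or more, with no overlap between the groups (up to 12 each way, and up to 8 each way that also did not overlap with the RPR2 metastases; where fewer than 5 passed in a direction, the 5 with the smallest unadjusted p there, overlap or not), fixed regulators, up to 4 called members of each list or else 2 by p, and up to 3 members per tumor list within 2-fold. Predicted genes, pseudogenes and antigen receptor segments were passed over. Markers such as Scgb1a1, Alb and Clec4f come from the fixed cell type list, and the neighbors of Mycl and genes with a printed promoter were chosen after their values were seen. Not every gene taken by the rule is described, and 1 is not reported here.

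Other settings tried were quantile normalization, median centring, rescaling without genes of other cells, a pseudocount of 0.1 or 5, a filter of 5 TPM, a filter on the compared libraries, none at all, array weights, robust moderation, mouse as a random block, a log2 change of at least 1, the 5 libraries alone, and each library left out. Leaving out both the JHK1398 metastasis and the JHK1394 lung tumor was chosen after seeing the data.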

Additional observations from a re-analysis of the deposited data

How the results depend on the processing

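The count of genes that passed, 9 in all with 0 higher and 9 lower, depended on the setting. It was 40 (0 higher, 40 lower) with a pseudocount of 0.1, 21 (1 higher, 20 lower) with array weights and 4 (all 4 lower) in the 5 libraries alone. With no filter 1 gene passed, 1 higher and 0 lower. It was 0 (0 lower) with a pseudocount of 5, quantile normalization, median centring, rescaling without genes of other cells, a minimum log2 change of 1, and without both the JHK1398 metastasis and the JHK1394 lung tumor, where 317 to 1149 genes had an unadjusted p under 0.05 in limma. With 1 library left out it ran from 0 to 6, from 0 to 6 for higher and from 0 to 1 for lower genes. With mouse as a random replicate block (estimated correlation 0.0509) 7 genes passed. The 5 libraries come from 5 mice, so no pairs exist within the comparison.

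The count of genes with interval within 2-fold, 3118, was 7532 with a pseudocount of 5, 11373 with no filter, 5358 with array weights, 5129 in the 5 libraries alone and 349 without both libraries, and ran from 632 to 2100 with 1 left out. The mean difference of Nfib, -33.39 TPM, ran from -57.8 to -13.08 with 1 library left out.

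Of 81 genes followed by their difference, 67 kept its sign under every alternative that could be fitted. The sign turned for the log2 difference of Rbl2 with a pseudocount of 5 (0.00748), quantile normalization (0.20) and median centring (0.12), for Chga with quantile normalization (0.12) and median centring (0.16), and for Calca with quantile normalization (-0.81). Without both libraries it turned for Cap1 (-1.08), Cdh1 (0.0178), Chga (0.42), Epcam (0.11), Mycl (-2.17), Nfia (-0.27), Nfix (0.60), Ppt1 (-0.17), Rbl2 (0.83) and Trit1 (-1.08). With 1 library left out, values ran from -1.01 to 4.39 for Alb, from -1.18 to 2.21 for Calca, from -0.96 to 4.48 for Cap1, from -0.83 to 0.79 for Chga, from -0.81 to 0.10 for Epcam, from -2.02 to 2.90 for Mycl, from -0.0439 to 0.951 for Mycn, from -0.63 to 0.84 for Nfia, from -2.27 to 0.52 for Nfix, from -0.71 to 0.26 for Nkx2-1, from -0.23 to 3.84 for Ppt1, from -1.13 to 1.02 for Rbl2 and from -0.75 to 4.56 for Trit1. The causes were not tested, and with 2 metastases the design limits every result.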
